A study of Mus musculus with 4 samples.

Results

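The data described here are those of 9 tight junction genes of the epidermal barrier in single-cell RNA sequencing of mouse back skin. The genes are Cldn1, Cldn4, Cldn7, Cldn8, Cldn12, Cldn23, Ocln, Tjp1 and F11r, which were chosen by symbol and make up 9 of the 32479 genes that the files list. All 9 were found, each as 1 entry. They hold between 36 counts (Cldn7) and 37294 counts (Cldn23) in all cells together.

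The samples are dissociated epidermis from 4 female C57BL/6N mice at postnatal day 19, 2 control mice of genotype CerS4fl/flK14Cre- and 2 CerS4epi-/- mice of genotype CerS4fl/flK14Cre+. All 4 mice thus carry the floxed Cers4 alleles, and the controls lack the Cre. The keratin 14 promoter drives Cre in basal cells, so that all keratinocytes made from them, follicle and gland included, descend from cells that had the Cre, while T cells and Langerhans cells do not. Cers4 encodes ceramide synthase 4, an enzyme that joins long acyl chains to sphingoid bases.

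Cells were labelled with sample tags and captured on BD Rhapsody, and the barcodes assigned to a mouse are called its library here. A library in this sense need not be a capture of its own. The libraries held 7567 to 9089 cells, with 39231945 to 53106317 counts in all and a median of 3265 to 3884 counts per cell. The values are estimated counts of unique molecular identifiers, each of which stands for 1 captured transcript, and levels are given as counts-per-million values (CPM), taken over all counts of a class of cells in a mouse. Mice of a genotype were numbered by the depositors, and CPM values below follow the order mouse 1, mouse 2. In the check of the deletion, Cers4 in outer bulge-like cells was at 34.1 and 31.3 CPM in the control mice and at 9.14 and 8.62 CPM in the CerS4epi-/- mice. These values rest on few counts, in 115 and 97 control and 256 and 274 CerS4epi-/- cells, and the check covers this class only. The 2 control libraries shared 0 cell barcodes and so did the 2 CerS4epi-/- libraries, whereas libraries of different genotype shared 64 to 102. By chance 87.1 shared barcodes were expected between the control libraries, 77.1 between the CerS4epi-/- libraries and 72.5 to 92.6 between libraries of different genotype. Barcodes are thus exclusive within a genotype only, as they would be if the mice of a genotype were divided from 1 pool of barcodes. How mice were divided over captures is not given in the sources used here. A difference between captures and a difference between genotypes therefore cannot be told apart in any comparison of genotypes below. The median share of mitochondrial counts was higher in the CerS4epi-/- mice in basal cells (9.72% and 9.64% against 11.2% and 10.9%) and lower in granular cells (4.18% and 4.32% against 3.82% and 3.60%). It was also higher in upper hair follicle-like (7.79% and 7.19% against 9.89% and 9.32%) and outer bulge-like cells (9.57% and 9.16% against 11.6% and 12.6%), where the median counts per cell were higher too (2424 and 2168 against 3168 and 2904, and 2171 and 2259 against 3244 and 3283).

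Tight junctions close the space between neighbouring cells of the second granular layer and hold back water, ions and larger molecules below the stratum corneum. Claudins are membrane proteins that form the strands of the junction, and their mixture sets which ions and solutes pass. Occludin and junctional adhesion molecules sit beside them in the membrane, and zonula occludens proteins in the plaque below tie the strands to actin. Loss of claudin 1 in mice is known to cause lethal water loss through the skin. In upper, differentiating parts of the hair follicle the same junctions line the canal.

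Cells were grouped by clustering that left out these 9 genes and all other genes of tight junctions listed for this work, so that the classes were not made from the genes described. The 34150 cells fell into 10 classes named by their markers: basal, cycling basal, spinous and granular interfollicular-like cells, upper hair follicle-like, differentiated infundibulum-like, outer bulge-like and sebaceous gland-like cells, T cell-like and Langerhans cell-like cells. The outer bulge-like class was led by Krt6a as well as Sox9 and Lhx2, and no separate inner bulge-like class was found. When cells were classed by marker score instead, 351 of its 742 cells were inner bulge-like and 322 outer bulge-like. The sebaceous gland-like class held 12 and 2 cells of the control mice and 26 and 35 cells of the CerS4epi-/- mice, and was not tested.

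The genes differ in structure. On GRCm39, Cldn4 (chr5:134973973-134975788, minus strand), Cldn8 (chr16:88357716-88360071, minus strand) and Cldn23 (chr8:36291866-36293713, minus strand) have 1 exon in their canonical transcript. Cldn1 (chr16:26175392-26190596, minus strand) and Cldn12 (chr5:5539537-5564995, minus strand) have 4 exons. Ocln (chr13:100630334-100689535, minus strand) has 9, F11r (chr1:171265092-171292958, plus strand) has 10 and Tjp1 (chr7:64945898-65177529, minus strand) has 27. Cldn7 (chr11:69852648-69858711, plus strand) has 4 exons and overlaps Elp5 on the other strand, and it is the only one of the 9 genes to overlap another gene counted in the files.

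The sequences before the start sites are shown because Cldn4 is the gene whose level differed between genotypes in most classes, and because it differs from the other genes in its matches to the AP-1 motif TGANTCA, which is bound by dimers of Fos and Jun proteins. RefSeq promoters on GRCm38.p6 were at hand for 7 of the 9 genes, in 11 windows of 250 bases before and 50 bases after a start site. The motif, which reads the same on both strands, occurred in 7.81% of 32851 such windows of all genes and at least 2 times in 0.46%. Cldn4 held it 2 times, at bases -240 and -158 from the start site, F11r held it once, at -109, and the windows of the other 5 genes held none. The Grainyhead-like motif AACNNGTT, likewise the same on both strands, occurred in 4.2% of all windows and in none of these genes. The 250 bases before the start are given for Cldn4 (chr5:134946935-134947184, minus strand), for F11r (chr1:171437311-171437560, plus strand) and, as a gene without a match, for Cldn1 (chr16:26371840-26372089, minus strand), with the AP-1 motif in capitals.
Cldn4: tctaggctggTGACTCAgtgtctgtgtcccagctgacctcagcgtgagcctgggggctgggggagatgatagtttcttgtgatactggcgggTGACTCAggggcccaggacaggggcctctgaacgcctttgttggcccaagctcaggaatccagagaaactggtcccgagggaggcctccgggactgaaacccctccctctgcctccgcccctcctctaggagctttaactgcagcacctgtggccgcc
F11r: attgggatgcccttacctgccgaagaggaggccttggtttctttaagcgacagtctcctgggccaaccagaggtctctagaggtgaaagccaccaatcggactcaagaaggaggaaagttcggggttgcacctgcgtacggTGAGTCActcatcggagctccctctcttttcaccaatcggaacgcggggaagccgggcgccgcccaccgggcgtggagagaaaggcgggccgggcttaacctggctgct
Cldn1: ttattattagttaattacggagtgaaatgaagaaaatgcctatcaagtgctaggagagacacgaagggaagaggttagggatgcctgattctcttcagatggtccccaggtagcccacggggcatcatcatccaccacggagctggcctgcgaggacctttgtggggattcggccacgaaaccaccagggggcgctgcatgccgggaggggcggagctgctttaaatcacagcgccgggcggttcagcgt
A match is a run of letters only, and binding was not measured.

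The strand-forming claudins of the differentiated cells were described first by their levels, which are given without a test between classes. Cldn23, a claudin of differentiated epithelia, was at 926 and 703 CPM in differentiated infundibulum-like cells of the control mice and at 811 and 875 CPM in those of the CerS4epi-/- mice. In granular cells it was at 708 and 692 against 732 and 718 CPM. These highest classes overlapped each other over the mice, and lay above the upper hair follicle-like cells (135 to 164 CPM) and the spinous cells (45.2 to 56.6 CPM), each of which stood apart from its neighbours. In basal cells Cldn23 was at 3.18 and 4.84 against 5.08 and 5.47 CPM, as low as in T cell-like cells (0 to 10.4 CPM). The low end of the range is therefore the level found in cells that are not keratinocytes.

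Cldn4, a claudin of many barrier epithelia, was highest of the 10 classes in differentiated infundibulum-like cells, at 549 and 533 CPM in the control mice and 639 and 630 CPM in the CerS4epi-/- mice. Upper hair follicle-like cells (225 to 448 CPM) and granular cells (241 to 355 CPM) overlapped, spinous cells lay below them at 110 to 186 CPM, and outer bulge-like cells lay below those at 56.0 to 85.3 CPM. Basal cells held 15.6 to 66.3 CPM and cycling basal cells 8.50 to 26.4 CPM, beside 4.65 to 22.4 CPM in Langerhans cell-like and 6.51 to 15.7 CPM in T cell-like cells. The control values of basal and cycling cells therefore lay within the range of these immune cells of both genotypes, and those of CerS4epi-/- basal cells above it. That range rests on 1 to 4 counts per mouse, and only CerS4epi-/- Langerhans cell-like cells (18.0 and 22.4 CPM) exceeded 15.7 CPM. Control basal cells held 15.6 and 19.2 CPM, from 176 and 230 counts.

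Cldn1, the claudin without which the skin barrier fails, was the least layered of the abundant claudins. Basal, spinous and granular cells held 134 to 192, 167 to 183 and 161 to 193 CPM, ranges that overlap from each to the next, and cycling basal cells held 90.03 to 116 CPM. Upper hair follicle-like cells held 257 to 383 CPM. The highest level was in Langerhans cell-like cells, the dendritic cells of the epidermis, with 711 and 499 CPM in the control mice and 486 and 402 CPM in the CerS4epi-/- mice, above all mice of every other whole class. These values rest on 57 to 153 counts in 39 to 74 cells per mouse. With each cell thinned to 1200 counts, 54.1% and 46.2% of the control and 40.0% and 35.2% of the CerS4epi-/- Langerhans cell-like cells held a Cldn1 count, against 14.97% to 19.1% of basal cells and 0% to 2.16% of T cell-like cells. The T cell-like cells of the same libraries were at 15.4 to 47.0 CPM. The order holds for whole classes, since the Cst6-rich cluster of the upper hair follicle-like class, at 432 and 462 CPM in the control mice and 541 and 522 CPM in the CerS4epi-/- mice, overlapped the Langerhans cell-like cells.

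**Figure D1:**
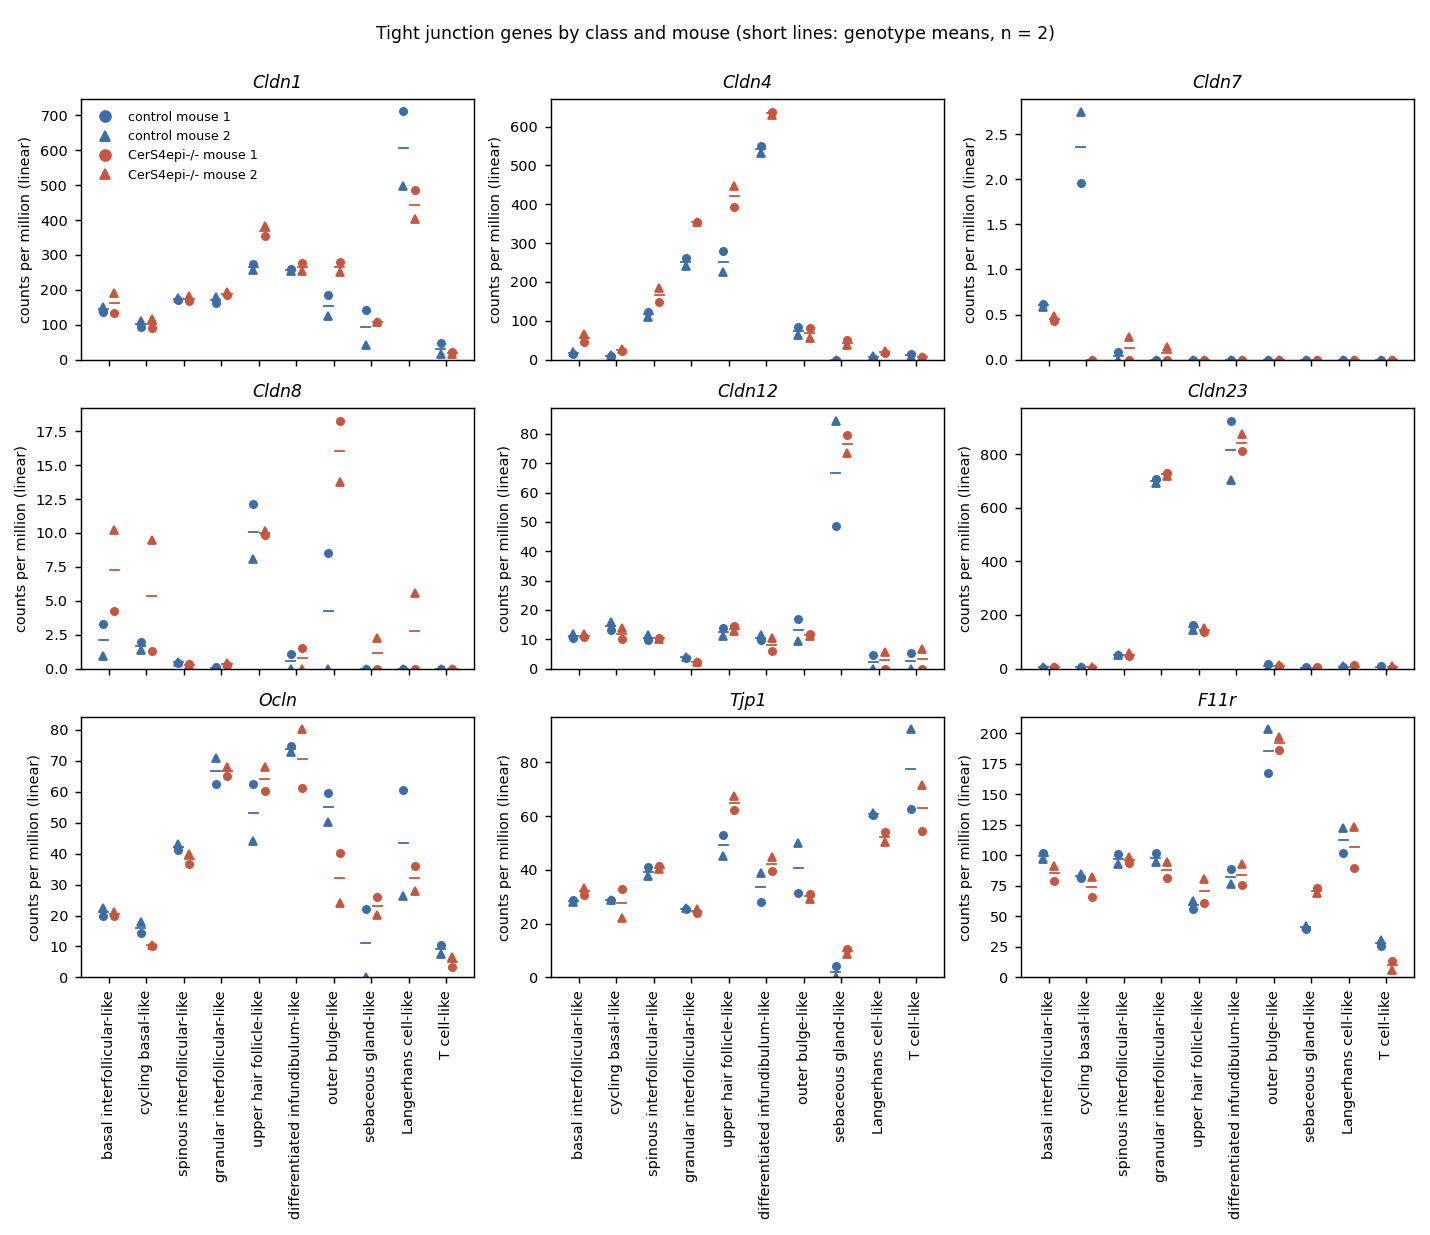
Level of each of the 9 genes (CPM, linear axes that start at 0) in the 10 classes, 1 point per mouse, with short lines at the means of the 2 mice of a genotype. Of these whole classes, Cldn23 and Cldn4 are highest in differentiated infundibulum-like cells, Cldn1 in Langerhans cell-like cells, Cldn12 in sebaceous gland-like cells and F11r in outer bulge-like cells. The outer bulge-like class is of mixed inner and outer bulge identity by marker score.

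The less abundant claudins had other patterns. Cldn12, a claudin linked in other epithelia to calcium passage, was at 48.7 and 84.4 CPM in sebaceous gland-like cells of the control mice and at 79.6 and 73.5 CPM in those of the CerS4epi-/- mice. The counts behind these values were 11 and 2 in the controls and 37 and 33 in the CerS4epi-/- mice, so the exact 95% Poisson interval for the control mice summed ran from 27.8 to 89.2 CPM, for counting error only. No mouse was above 17.1 CPM in any other class, and in granular cells all 4 mice lay at 2.33 to 3.96 CPM, below the other keratinocyte classes. Cldn8, known from the tight distal segments of the kidney, had 462 counts in all, of which most came from basal (37 and 11 against 60 and 105 counts) and upper hair follicle-like cells (30 and 15 against 64 and 55). Within these, its level was highest in the Cst6-rich cluster of the upper follicle (48.4 and 30.6 against 20.1 and 11.6 CPM) and in the basal cluster marked by Fst and Sostdc1 (22.3 and 9.17 against 15.4 and 35.1 CPM). Cldn7 had 36 counts in all 4 libraries and was at 0 in upper hair follicle-like, infundibulum-like, outer bulge-like and sebaceous gland-like cells, so that no difference in it was detectable at this depth.

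Of the other membrane proteins and the plaque protein, Ocln was higher in each further layer, and F11r and Tjp1 differed less between layers than Ocln. Ocln, which encodes occludin, was at 19.7 to 22.6 CPM in basal cells, 36.6 to 43.1 CPM in spinous cells and 62.6 to 70.7 CPM in granular cells, without overlap between these 3 classes. Differentiated infundibulum-like cells held 61.0 to 80.1 CPM. F11r, which encodes junctional adhesion molecule A, was near one level in basal (79.3 to 102 CPM), spinous (93.1 to 101 CPM) and granular cells (81.4 to 102 CPM). Of the 10 classes it was highest in outer bulge-like cells, at 168 and 203 against 187 and 197 CPM. That class is of mixed bulge identity by marker score. With other clusterings or classes by marker score, F11r was highest in an inner bulge-like class, which the main clustering lacks. F11r lay lower in upper hair follicle-like cells (56.3 to 80.3 CPM). Tjp1, which encodes zonula occludens protein 1, was not higher in the granular layer than below it: granular cells held 23.8 to 25.7 CPM and spinous cells 37.6 to 41.3 CPM. Of the 10 classes its level was highest in T cell-like cells (54.6 to 92.2 CPM), which overlapped upper hair follicle-like cells (45.1 to 67.4 CPM) and rest on 12 to 22 counts per mouse. The Cst6-rich cluster within the latter class held 70.3 to 108 CPM, with a mean above that of T cell-like cells.

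Along a score of differentiation, in which the interfollicular cells were ordered by markers of the layers and divided into 10 bins, the genes differed in where their level was highest. Cldn23 stayed at 3.19 to 12.2 CPM, as a mean over mice, from the first to the seventh bin, then was at 28.8, 234 and 793 CPM in the last bins. Cldn4 was at 44.3 CPM in the fifth bin and at 299 CPM in the last. Ocln went from 15.4 CPM in the second bin to 66.8 CPM in the last in smaller steps. Cldn1 and Tjp1 had their maximum before the end, Cldn1 in the ninth bin (226 CPM) with 162 CPM in the last, and Tjp1 in the eighth (42.4 CPM) with 22.1 CPM in the last. Cldn12 was at 8.79 CPM in the ninth bin and 2.21 CPM in the last. The last bin was 99.96% granular-like cells by cluster, and the ninth 29.1%.

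**Figure D2:**
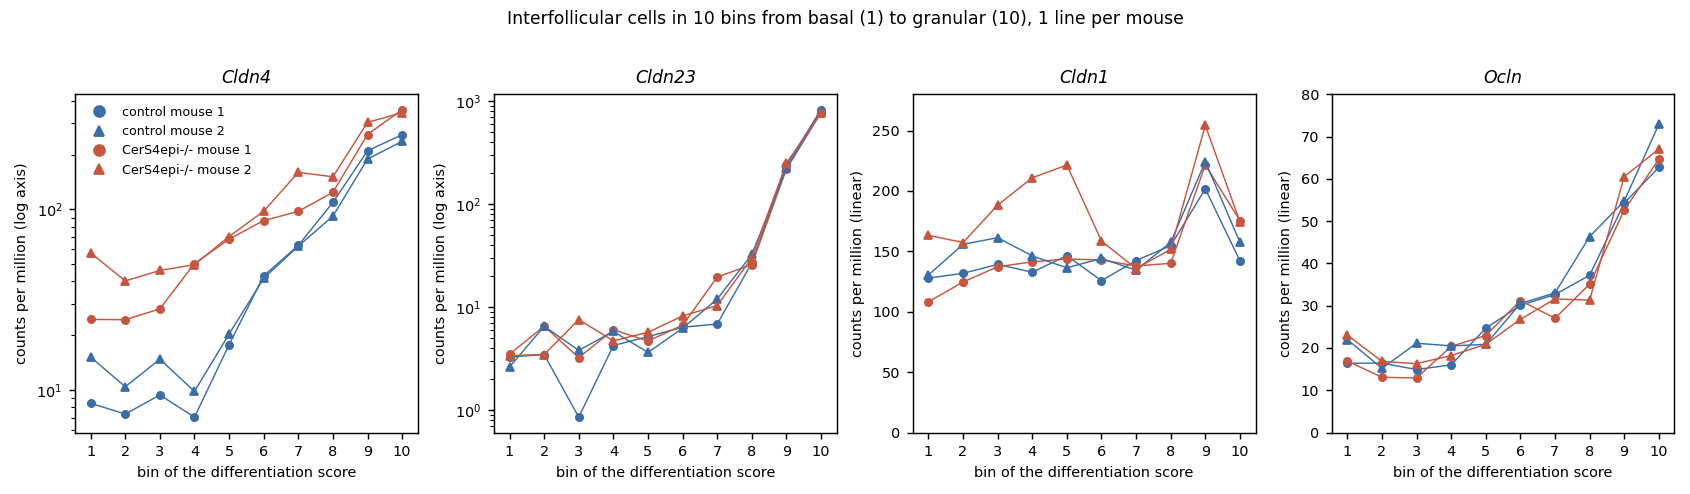
Levels (CPM) of Cldn4 and Cldn23 (log axes) and of Cldn1 and Ocln (linear axes from 0) in 10 bins of a differentiation score of interfollicular cells, from basal (1) to granular (10), 1 line per mouse. Cldn4 of both CerS4epi-/- mice lies above both control mice in all 10 bins, by 5.89-fold in bin 4 and 1.41-fold in bin 10.

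The comparison of genotypes asked which of these genes changed in which cells when ceramide synthase 4 was deleted. Counts were summed per mouse and class and tested across the 2 control and 2 CerS4epi-/- mice with the edgeR quasi-likelihood test, with p-values adjusted over all genes tested by Benjamini-Hochberg. Fitted fold changes are scaled by TMM, which raised them against the plain CPM values by 0.11 on the log2 scale in granular and by 0.10 in upper hair follicle-like cells. In the other classes the shift ran from -0.01 (spinous cells) to +0.06 (outer bulge-like cells). A rank test on single values could not pass with 2 against 2 mice, since the smallest 2-sided exact permutation p is 0.333. Since class sums are shares of the counts of a class, fewer transcripts per cell and fewer cells with the transcript cannot be told apart in them.

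Cldn4 was the gene that changed most widely. In basal cells it was at 15.6 and 19.2 CPM in the control mice and 45.4 and 66.3 CPM in the CerS4epi-/- mice. Both CerS4epi-/- mice lay above both controls, and the log2 fold change was +1.72 (SE 0.18, 3.29-fold, adjusted p = 0.0018). It was the only one of 8 genes tested there to be called, and 4.57% of all 12928 genes tested in basal cells were called higher. Of the other 7, 6 lay between -0.17 (F11r) and +0.43 (Cldn23) on the log2 scale. Cldn8 was at 3.27 and 0.919 against 4.23 and 10.2 CPM, which did not overlap (log2 fold change +1.80, SE 0.54, adjusted p = 0.082). This value rests on single mice: it was +2.97 without control mouse 1, +2.34 without CerS4epi-/- mouse 1, +1.15 without control mouse 2 and +1.08 without CerS4epi-/- mouse 2, and it was called in 4 of 15 alternatives.

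In spinous cells Cldn4 was at 124 and 110 CPM in the control mice and 148 and 186 CPM in the CerS4epi-/- mice, again without overlap. The log2 fold change was +0.50 (SE 0.10, adjusted p = 0.020), and the call was lost without CerS4epi-/- mouse 2 (log2 fold change +0.34, adjusted p = 0.107). Cldn4 was the only one of 7 genes called, beside 3.8% of all genes tested that were called higher. The other 6 ranged from -0.15 (Ocln) to +0.05 (Tjp1) on the log2 scale.

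In granular cells, where the junctions are formed, Cldn4 was at 262 and 241 CPM in the control mice and 355 and 354 CPM in the CerS4epi-/- mice. The groups did not overlap, and the log2 fold change was +0.60 (SE 0.07, 1.52-fold, adjusted p = 0.00055). Here too it was the only one of 7 genes called, in a layer in which 10.2% of all genes tested were called higher, so that the count of 1 in 7 is near the background and only the value of Cldn4 itself is described as a difference. Cldn1, at 161 and 180 against 185 and 193 CPM, gave +0.25 (SE 0.08, adjusted p = 0.060). Cldn23, the most abundant claudin of this class, gave +0.16 (SE 0.06, adjusted p = 0.125), and Ocln, at 62.6 and 70.7 against 65.2 and 67.9 CPM, overlapped between genotypes.

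In cycling basal cells 0 of 6 genes were called by edgeR and 0 by DESeq2, beside 0.878% of all genes tested that were called higher. Cldn4 had the lowest unadjusted p of the 6 and the only one under 0.05, with 8.50 and 12.4 CPM in the control mice and 21.6 and 26.4 CPM in the CerS4epi-/- mice. Its log2 fold change was +1.21 (SE 0.33, adjusted p = 0.089).

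The difference in Cldn4 itself differed between layers. In a test of the interaction of genotype and class within mice, the log2 fold change in granular cells was lower than that in basal cells by 1.09 (difference -1.09, SE 0.16, adjusted p = 0.00013). Of the genes tested for this interaction, 9.37% were called in either direction, and Cldn4 was the only one of the 9 genes among them. On the CPM scale the order was the other way round: the means of the genotypes differed by more CPM in granular cells than in basal cells. In the bins of the differentiation score both CerS4epi-/- mice lay above both controls in all 10 bins, which was so for no other of the genes. The ratio of the genotype means was 3.47 in the first bin, 5.89 in the fourth (7.06 and 9.81 against 50.03 and 49.3 CPM) and 1.37 to 1.41 in the last 3.

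Single clusters were tested too, a step added after the classes had been seen. Cldn4 was called in the main basal cluster (7.27 and 10.2 against 28.8 and 47.5 CPM, log2 fold change +2.14, SE 0.25, adjusted p = 0.0014), where 2.24% of all genes tested were called higher. It was called in the cluster between basal and spinous cells (40.9 and 39.9 against 99.1 and 147 CPM, log2 fold change +1.63, SE 0.16, adjusted p = 3.4e-06, with 2.98% called higher). In the early granular cluster, marked by Cdsn and Serpina12, it was at 312 and 284 against 450 and 447 CPM (log2 fold change +0.66, SE 0.07, adjusted p = 0.00067, with 7.76% called higher). In the late granular cluster, marked by Lce1m, the level was lower and the genotypes overlapped, at 107 and 98.4 against 102 and 109 CPM. The early granular cluster also had Cldn1 (log2 fold change +0.29, SE 0.08, adjusted p = 0.038) and Cldn23 (+0.23, SE 0.06, adjusted p = 0.043) called higher, and the main basal cluster had Cldn8 called higher, at 0.143 and 0.136 against 1.48 and 2.16 CPM (adjusted p = 0.018). These Cldn8 values are near the floor and rest on few counts. The whole basal class held 37 and 11 counts of it in the control mice and 60 and 105 in the CerS4epi-/- mice. The interaction between the early granular and the main basal cluster was -1.45 for Cldn4 (SE 0.23, adjusted p = 0.0014, with 5.06% of genes called in either direction). In the third basal cluster, marked by Fst and Sostdc1, 0 of 8 genes tested were called, beside 352 higher and 357 lower of 10189 genes. It numbered 648 and 516 against 1143 and 1034 cells, so the makeup of the basal class differed between genotypes.

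**Figure D3:**
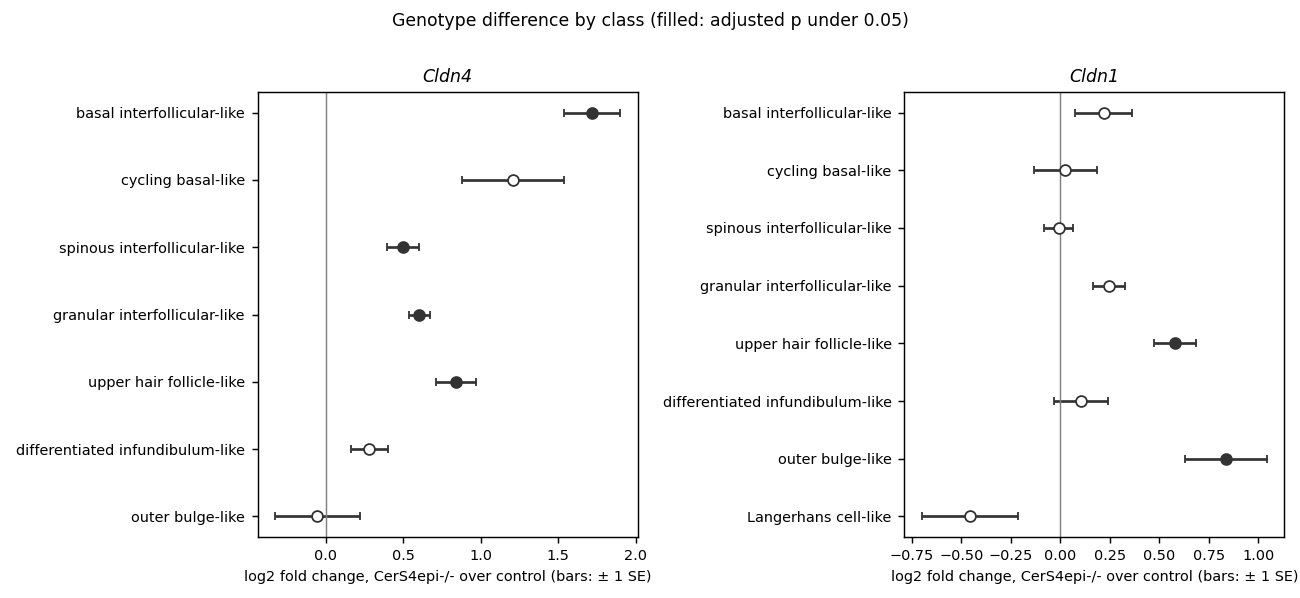
Log2 fold change of Cldn4 and Cldn1 between CerS4epi-/- and control mice (bars, ± 1 SE of the edgeR fit on 2 against 2 mice) in each class tested, with filled points at an adjusted p under 0.05. Cldn4 runs from +1.72 in basal cells to -0.06 in outer bulge-like cells, and Cldn1 is called in upper hair follicle-like and outer bulge-like cells.

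In upper hair follicle-like cells 3 of 8 genes tested were called, all higher in CerS4epi-/- mice, beside 7.7% of all genes tested. Cldn1 was at 273 and 257 CPM in the control mice and 354 and 383 CPM in the CerS4epi-/- mice, without overlap (log2 fold change +0.58, SE 0.11, adjusted p = 0.0040). Cldn4 was at 279 and 225 against 393 and 448 CPM (log2 fold change +0.84, SE 0.13, adjusted p = 0.0012), and Tjp1 at 53.0 and 45.1 against 62.4 and 67.4 CPM (log2 fold change +0.50, SE 0.13, adjusted p = 0.033). The call of Tjp1 was lost in 5 of 15 alternatives, among them DESeq2 (adjusted p = 0.249), without control mouse 2 (0.194) and without CerS4epi-/- mouse 2 (0.076). In cells of at most 10% mitochondrial counts the log2 fold changes were +0.73 for Cldn1, +1.10 for Cldn4 and +0.70 for Tjp1, and in cells of at least 2000 counts +0.59, +0.82 and +0.50, all called. Cldn23, at 164 and 142 against 135 and 150 CPM, and Cldn8, at 12.1 and 8.05 against 9.88 and 10.1 CPM, overlapped.

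The class holds 2 clusters. The Cst6-rich cluster numbered 167 and 90 against 411 and 459 cells, and the Krt79-led cluster 672 and 554 against 1146 and 956. Levels of Cldn4, Cldn1 and Tjp1 were higher in the Cst6-rich cluster than in the other in all 4 mice, so the class values also follow the share of that cluster. Within the Cst6-rich cluster Cldn4 was at 521 and 492 against 793 and 775 CPM (log2 fold change +0.79, SE 0.12, adjusted p = 0.0015, with 6.42% of genes called higher). Within the Krt79-led cluster it overlapped, at 208 and 168 against 167 and 201 CPM (log2 fold change -0.02, SE 0.12). The interaction between these clusters was +0.89 (SE 0.15, adjusted p = 0.0030), with 4.15% of genes called in either direction. It was not called without control mouse 1, without control mouse 2 or without CerS4epi-/- mouse 1, where it ranged from +0.72 to +0.99 over the mice left out.

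Cldn1 and Tjp1 were called in neither of these clusters. In the Cst6-rich cluster Cldn1 gave +0.42 (SE 0.12, adjusted p = 0.051) and in the Krt79-led cluster +0.28 (SE 0.10, adjusted p = 0.117), with no overlap of the mice in either. Tjp1 was at 108 and 70.3 against 101 and 105 CPM in the first and at 37.2 and 40.4 against 40.1 and 39.1 CPM in the other, where the mice overlapped. Cldn23 was called lower in the Krt79-led cluster, at 103 and 76.2 CPM in the control mice and 52.0 and 53.0 CPM in the CerS4epi-/- mice (log2 fold change -0.76, SE 0.15, adjusted p = 0.0057), where 3.68% of genes were called higher and 3.55% lower. In the whole class the same gene gave a log2 fold change of -0.01 (SE 0.12).

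The interaction of the upper hair follicle-like against the basal class was -0.85 for Cldn4 (SE 0.18, adjusted p = 0.014) and +0.54 for F11r (SE 0.14, adjusted p = 0.041), beside 5.27% of all genes called in either direction. It was not called for Cldn1 (+0.39, SE 0.14, adjusted p = 0.141) or Tjp1 (+0.29, SE 0.15, adjusted p = 0.336). The call of Cldn4 was lost without control mouse 1 (-0.52, adjusted p = 0.156), and that of F11r without control mouse 1 (0.240), control mouse 2 (0.122) or CerS4epi-/- mouse 2 (0.143). F11r was called in neither class alone: basal cells held 102 and 96.7 against 79.3 and 91.4 CPM, and upper hair follicle-like cells 56.3 and 62.3 against 61.2 and 80.3 CPM.

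In differentiated infundibulum-like cells 0 of 6 genes were called by edgeR and 0 by DESeq2, with 1 at an unadjusted p under 0.05, while 2.52% of all genes tested were called higher. Cldn4, at its highest level of the 10 classes there, though the Cst6-rich cluster of the upper follicle was higher in both CerS4epi-/- mice, gave +0.28 (SE 0.12, adjusted p = 0.266), with both CerS4epi-/- mice above both controls. In outer bulge-like cells 1 of 5 genes was called, beside 6.26% of all genes tested. That was Cldn1, at 185 and 125 CPM in the control mice and 281 and 252 CPM in the CerS4epi-/- mice (log2 fold change +0.84, SE 0.21, adjusted p = 0.012). The call was lost with DESeq2 (adjusted p = 0.098), without control mouse 2 (0.137, log2 fold change +0.58), without the filter on low counts (0.060) and at a finer clustering (0.405, +0.31). It held in cells of at most 10% mitochondrial counts (+0.92, adjusted p = 0.025) and in cells of at least 2000 counts (+0.75, adjusted p = 0.026). Cldn4 overlapped in this class, at 85.3 and 62.6 against 81.4 and 56.0 CPM, which is the only class of keratinocytes tested in which it was not higher in both CerS4epi-/- mice. F11r overlapped, at its highest level of all classes.

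Sebaceous gland-like cells were too few to test. Cldn4 had 0 counts in 12 and 2 cells of the control mice, which allows up to 12.0 CPM over both, and 23 and 17 counts in 26 and 35 cells of the CerS4epi-/- mice (49.5 and 37.9 CPM). The 2 cells of control mouse 2 add little to this. F11r was at 39.9 and 42.2 against 73.2 and 69.1 CPM in the same cells, from 9 and 1 against 34 and 31 counts.

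In cells that do not carry the deletion, few of these genes passed the filter on low counts. In T cell-like cells only Tjp1 passed the filter on low counts and was not called by edgeR or DESeq2, with 0.0447% of all genes called higher. In Langerhans cell-like cells 3 genes passed and 0 were called by either tool, 0 of them at an unadjusted p under 0.05, with 0.127% of all genes called higher. Cldn1 there gave -0.46 (SE 0.24, adjusted p = 0.895), with both CerS4epi-/- mice below both controls. Cldn4 was too low there to pass the filter, at 4.65 and 8.75 CPM in the control mice (1 count each) and 18.0 and 22.4 CPM in the CerS4epi-/- mice (3 and 4 counts). These cells come from the same libraries as the keratinocytes, and whether free RNA took part in these counts was not tested.

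The median log2 fold change of the genes tested was +0.22 in basal, -0.06 in cycling basal, -0.01 in spinous, +0.10 in granular, +0.35 in upper hair follicle-like, +0.10 in differentiated infundibulum-like, -0.06 in outer bulge-like and -0.21 in Langerhans cell-like cells. The medians over all genes tested in these classes were -0.02 to +0.01. Only genes that passed the filter on low counts enter these medians.

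Over all keratinocytes of a mouse together, 2 of 9 genes were called, both higher, beside 9.08% of all genes tested. Cldn4 was at 143 and 132 CPM in the control mice and 203 and 228 CPM in the CerS4epi-/- mice (log2 fold change +0.66, SE 0.07, adjusted p = 0.0041). Cldn8 was at 2.01 and 0.818 against 3.26 and 5.53 CPM (log2 fold change +1.64, SE 0.42, adjusted p = 0.045), from 80 and 35 against 155 and 191 counts, and its call was lost without CerS4epi-/- mouse 2 (log2 fold change +1.23, adjusted p = 0.072). These totals also follow the makeup of the libraries, in which basal cells of the Fst and Sostdc1 cluster, one of the clusters richest in Cldn8, numbered 648 and 516 in the control mice and 1143 and 1034 in the CerS4epi-/- mice. Within that cluster Cldn8 overlapped between genotypes.

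The share of cells with a count of Cldn4 was described after thinning each cell to 1200 counts. Of basal cells, 1.52% and 1.85% held a count in the control mice and 3.67% and 4.20% in the CerS4epi-/- mice, and the exact 95% binomial intervals, for counting error only, did not overlap between genotypes. In T cell-like cells, which should lack the gene, the shares were 0% and 0% in the control mice, which allows up to 2.83% and 4.62%, and 0.719% and 1.39% in the CerS4epi-/- mice, at median depths of 1541 to 1904 counts against 2672 to 3148 in basal cells. The exact 95% upper limits for the T cell-like cells of the CerS4epi-/- mice were 3.94% and 4.93%. The basal shares of both genotypes thus lay within what the few T cell-like cells allow. In granular cells the thinned shares were 25.8% and 23.2% against 30.4% and 31.3%. Without thinning they were 75.6% and 73.8% against 77.0% and 75.9%, at median depths of 10212 to 12677 counts.

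**Figure D4:**
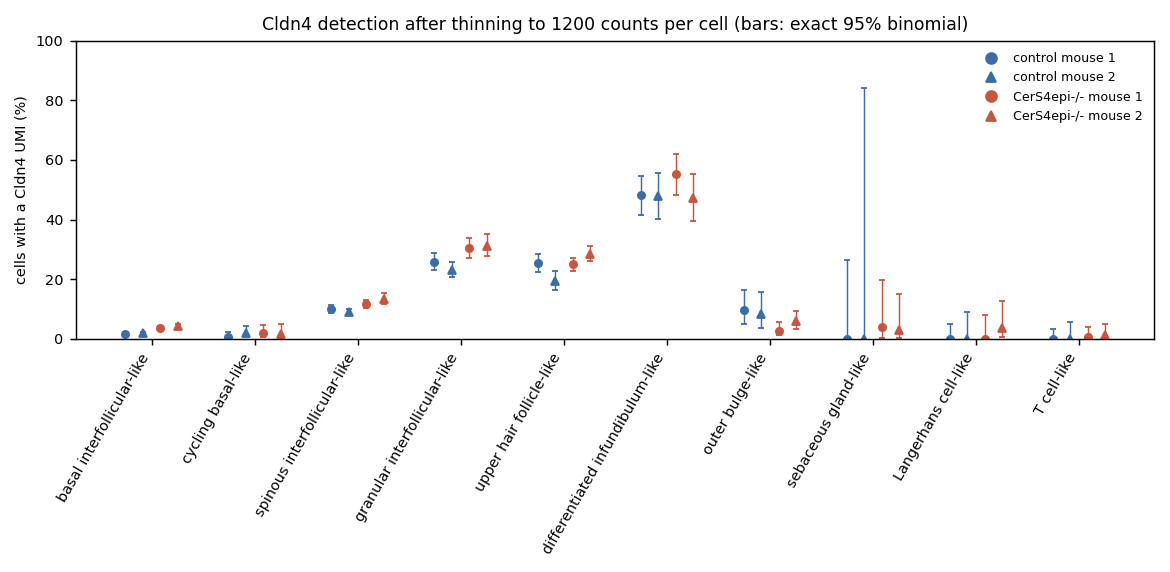
Share of cells (percent) with at least 1 count of Cldn4 after thinning each cell to 1200 counts, by class and mouse, with exact 95% binomial intervals. In basal cells the CerS4epi-/- mice lie at 3.67% and 4.20% above the control mice at 1.52% and 1.85%.

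Genes of early response to dissociation were measured beside these values, since both AP-1 genes and heat shock genes rise when tissue is digested. Of 12 such genes, 8 were called higher in CerS4epi-/- basal cells, 8 in spinous and 9 in granular cells, and their summed level went from 16680 and 15500 to 18890 and 20860 CPM in basal cells. In the same order it went from 9905 and 7438 to 13320 and 13610 CPM in spinous and from 6758 and 4542 to 8806 and 8409 CPM in granular cells. In upper hair follicle-like cells the sums were 14290 and 11360 against 12180 and 11340 CPM, with 1 gene called higher and 2 lower. Differentiated infundibulum-like cells had sums of 14850 and 12100 against 16730 and 18980 CPM, with 7 genes called higher. Cycling basal cells had 14520 and 15150 against 14550 and 16180 CPM, with 0 called. Outer bulge-like cells had 5179 and 5259 against 6371 and 3289 CPM, with 0 called higher and 1 lower. Of all genes tested, 4.57% were called higher in basal, 3.8% in spinous, 10.2% in granular and 2.52% in differentiated infundibulum-like cells. In cycling basal cells 0.878% were called higher. The shares called higher and lower were 7.7% and 4.54% in upper hair follicle-like cells and 6.26% and 5.81% in outer bulge-like cells. The sums of the dissociation genes are not described for single clusters. The part of the dissociation genes in the result for Cldn4 was not tested.

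Other genes of the junction were taken from a list of 59, of which 56 were found. Epcam, whose product binds claudins and steadies them in the membrane, was called higher in 6 of the classes, among them basal (74.0 and 76.1 against 113 and 142 CPM, log2 fold change +0.80, SE 0.11), granular (337 and 338 against 538 and 579 CPM, +0.83, SE 0.07) and outer bulge-like cells (594 and 501 against 1090 and 1167 CPM, +1.11, SE 0.18). In basal cells 3 of 33 genes of the list were called higher (Arhgef2, Epcam, Klf4) and 2 lower, among them Prkcz, beside 4.57% and 3.06% of all genes tested. In spinous cells these were 2 (Epcam, Klf4) and 1 (Lsr) of 33, beside 3.8% and 3.13% of all genes.

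In granular cells 9 of 33 were called higher and 3 lower, beside 10.2% and 6.95% of all genes, so that the count of lower genes is near the background. The median log2 fold change over the 33 was +0.10. The higher genes included Cgn, which encodes the plaque protein cingulin (457 and 486 against 566 and 578 CPM), the membrane-anchored protease Prss8 (82.1 and 84.2 against 133 and 136 CPM, log2 fold change +0.79, SE 0.07) and its inhibitor Spint1. They also included Cxadr, Pard3, Epcam and the transcription factors Grhl3 (286 and 246 against 387 and 344 CPM) and Klf4. The lower genes were Marveld2, which encodes the tricellular junction protein tricellulin (16.3 and 15.8 against 9.91 and 7.94 CPM), and the polarity genes Prkcz and Pals1. Upper hair follicle-like cells had 3 of 36 higher, among them Epcam and Spint1, and 1 lower, Lsr, which recruits tricellulin to the corners where cells meet (183 and 193 against 120 and 125 CPM). Of all genes tested in that class, 7.7% were called higher and 4.54% lower.

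In the outer bulge-like class, which is of mixed bulge identity by marker score, claudins outside the 9 were called lower. Cldn3 was at 79.6 and 78.2 CPM in the control mice and 21.9 and 15.5 CPM in the CerS4epi-/- mice (log2 fold change -2.01, SE 0.32, adjusted p = 0.00026), and Cldn14 was at 14.2 and 21.9 against 3.66 and 5.17 CPM (-1.91, SE 0.59, adjusted p = 0.042). These were the 2 of 31 called lower there, beside 5.81% of all genes, and Pard6g and Epcam were the 2 called higher. The class held 351860 and 319731 counts of all genes in the control mice and 1093872 and 1160548 in the CerS4epi-/- mice. The Cldn14 values thus rest on few counts in every mouse, and alternatives are not described for the genes outside the 9. In differentiated infundibulum-like cells 0 of 28 were called by edgeR and 0 by DESeq2, with 7 at an unadjusted p under 0.05. Over all keratinocytes 5 of 39 were called higher and 5 lower, beside 9.08% and 6.69% of all genes.

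The genes whose pattern over classes and mice was most like that of the 3 most variable of the 9 were sought among 9687 genes, by Pearson correlation of log2(CPM + 1) over 36 profiles of 9 classes in 4 mice. The profiles of a mouse come from 1 library, so these values are descriptions. For Cldn23 they were Rdh9 (r = 0.954), Cgn (0.951) and Ano9 (0.949). For Cldn4 they were Spryd7 (0.953), Hspb1 (0.949) and Grhl1 (0.943). For Cldn1 they were Spint1 (0.927), Zfp710 (0.899) and Prkcd (0.890).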

How the data were processed

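Single-cell suspensions of the back skin epidermis of 4 mice were labelled with sample tags and sequenced as BD Rhapsody whole transcriptome libraries. The deposited values are estimated counts of unique molecular identifiers per gene and barcode, which the authors made by trimming reads with fastp 0.23.2, assigning barcodes and tags with their own scripts and counting with STARsolo (STAR 2.7.10a) on GRCm39 with Gencode vM29. Intronic reads were included, reads of several genes were divided by expectation maximization, and no cells were removed. Of the 9 genes, 0% (claudins) to 1.40% (Tjp1) of entries were not whole.

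Everything after this was computed anew. Barcodes under 1200 counts or over 20% mitochondrial counts were left out. Scrublet marked 1, 0, 0 and 2 cells, which were removed, and so few marks mean that it did not work, so doublets are taken as present. Cells were clustered with scran 1.30.0 size factors, 3000 variable genes without the tight junction genes, a Harmony correction over mice written anew, and Leiden (scanpy 1.11.5). Clusters were named from marker lists by a rule that was settled after the clusters had been seen. The 9 genes and all gene lists were chosen with earlier results of these data known.

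Estimated counts were summed per mouse and class, rounded, and tested with edgeR 4.0.16 (TMM, low counts filtered by filterByExpr, quasi-likelihood test of genotype, Benjamini-Hochberg over all genes tested, called at an adjusted p under 0.05), in classes of at least 20 cells per mouse. The study split pooled cells into pseudoreplicates, and here the mouse is the replicate. Nothing states that mice came from separate litters. Interactions were fitted with mouse as a term. The scripts were tested on simulated data. A log2 change of 0.5 was called in 48% of the genes given it in basal, 33% in granular, 15% in upper hair follicle-like and 0% in outer bulge-like cells. A change of 1 was called in 79%, 71%, 66% and 29%, in the same order. A gene that was not called may therefore still differ. Alternatives were DESeq2 1.42.0, its size factors, no filter, a replicate block, each mouse left out, other limits on cells and other clusterings. Tests of single clusters were added after seeing the data. The genes named are the 9, those of the list past the threshold and the most abundant of each of its groups. Some genes of the list are not reported here. Intervals and limits cover counting error only.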

Additional observations from a re-analysis of the deposited data

Results flagged for a closer look

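The following differences between cell types in the effect of genotype passed a test of the difference itself, by the edgeR quasi-likelihood interaction with Benjamini-Hochberg adjustment over all genes. For Cldn4 the log2 fold change in granular cells minus that in basal cells was -1.09 (SE 0.16, adjusted p = 0.00013), and all 8 alternatives called it. In upper hair follicle-like against basal cells it was -0.85 (SE 0.18, adjusted p = 0.014), called in 7 of 8 alternatives and lost without control mouse 1 (-0.52, adjusted p = 0.156). For F11r the same difference was +0.54 (SE 0.14, adjusted p = 0.041), called in 4 of 8 alternatives, with a range of +0.44 to +0.65, and lost without control mouse 1, without control mouse 2, without CerS4epi-/- mouse 2 and in cells of at least 2000 counts.

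Among the single clusters, added after the data were seen, Cldn4 differed by +0.89 between the Cst6-rich and the Krt79-led cluster of the upper follicle (SE 0.15, adjusted p = 0.0030), called in 3 of 6 alternatives and lost without control mouse 1, control mouse 2 or CerS4epi-/- mouse 1 (adjusted p of 0.127, 0.098 and 0.094). Between the early granular and the main basal cluster it differed by -1.45 (SE 0.23, adjusted p = 0.0014), called in all 6 alternatives. The share of genes called in either direction was 9.37%, 5.27%, 4.15% and 5.06% in these comparisons, in the order of granular, upper follicle, follicle cluster and granular cluster. Groups of 2 mice are too small for a test of single outlying mice.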

How the results depend on the processing

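Over all alternatives, 1050 log2 fold changes and differences of the 9 genes kept their status as called or not called. Another 36 gained a call, 20 lost one, and none that was called changed sign. Values that were not called could change sign. Cldn12 in cycling basal cells was at -0.28 as reported and ran from -0.47 to +0.42 over the alternatives. Cldn4 was called in all 15 alternatives in basal (+1.43 to +1.97), granular (+0.56 to +0.64), upper hair follicle-like (+0.58 to +1.10) and all keratinocytes (+0.58 to +0.85), and in 14 of 15 in spinous cells (+0.34 to +0.64).

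The number of the 9 genes called moved as follows. Calls over all genes tested moved over the alternatives too, with the ranges given below. These counts are therefore not read as results about the 9 genes. In basal cells 2 were called without the filter on low counts and 2 with the replicate block, and 1 to 3 with a mouse left out. In cycling cells 1 was called without the filter and 1 with the replicate block, and 0 to 1 with a mouse left out. In granular cells 2 were called with DESeq2 size factors and 2 with the replicate block, and 1 to 2 with a mouse left out. In spinous cells 0 to 1, in upper hair follicle-like cells 2 to 5 and over all keratinocytes 1 to 3 were called with a mouse left out. In differentiated infundibulum-like cells 3 were called when classes were set by marker score. Over the alternatives, calls among all genes in this class ranged from 0 to 1168 (259 as reported). In outer bulge-like cells 0 were called with DESeq2, 0 without the filter, and 0 to 2 with a mouse left out. The interaction of upper follicle against basal cells called 4 without the filter and 0 to 3 with a mouse left out. The class of highest level stayed for 4 of the 9 genes with classes by marker score, and for 5 of 9 shares of cells after thinning. The causes were not tested.

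The replicate block rests on numbers that do not pair the mice: same-numbered mice correlated at -0.05 to 0.10 over classes. Of all genes tested, the calls ranged over the alternatives from 583 to 1932 in basal cells (987 as reported), 28 to 427 in cycling cells (123), 369 to 2008 in spinous cells (864), 1213 to 2685 in granular cells (2013), 664 to 1881 in upper hair follicle-like cells (1361), 0 to 1168 in differentiated infundibulum-like cells (259), 404 to 1137 in outer bulge-like cells (941) and 1559 to 3206 over all keratinocytes (2484). In T cell-like cells they ranged from 0 to 63 (5), in Langerhans cell-like cells from 0 to 49 (4), and in the interactions from 745 to 1311 (1285) for granular and 276 to 1121 (696) for upper follicle against basal cells. For the Cst6-rich against the Krt79-led cluster they ranged from 47 to 636 (437), and from 47 to 187 with a mouse left out. With a mouse left out, the lone mouse of its genotype is assumed to vary like the others.

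Depth limits the outer bulge-like cells, in which 5 of the 9 genes passed the filter on low counts, and the sebaceous gland-like cells, which were not tested.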

Other observations

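With a finer clustering, without Harmony, with another seed or with classes by marker score, an inner bulge-like class appeared that the main clustering does not have, and F11r was then highest in that class. With classes by marker score, Cldn1 and Tjp1 were highest in differentiated infundibulum-like cells. In Langerhans cell-like cells, Ocln was at 60.4 and 26.2 CPM in the control mice and 36.0 and 27.9 CPM in the CerS4epi-/- mice, from 3 to 13 counts per mouse, above the 3.41 to 10.5 CPM of T cell-like cells. F11r was at 102 and 122 against 89.9 and 123 CPM in Langerhans cell-like cells, above all mice of T cell-like cells (6.51 to 30.7 CPM).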
